A study of Mus musculus with 12 samples.

Results

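Tuft cells are a rare epithelial cell type, and 9 genes that mark them (Dclk1, Trpm5, Pou2f3, Avil, Il25, Alox5, Gfi1b, Sh2d6 and Rgs13) were read here from a count table of sorted gut epithelium. The genes were chosen by name as tuft cell markers, and 9 of 9 were found among the 15855 genes of the table. RNA had been sequenced from EpCAM+ epithelial cells of the whole small intestine of C57BL6/J mice, 24 h after sham surgery (7 samples) or permanent middle cerebral artery occlusion (pMCAO, 5 samples), a stroke model in which a brain artery is closed and not reopened. By the study's methods the mice were male unless stated otherwise and 8 to 12 weeks old. Each library is labelled a biological replicate of its group, so that p-values measure the spread between these samples. EpCAM marks epithelium of every type, and no gate for tuft cells was named, so each library is a mixture in which tuft cells are a small part.

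Tuft cells sense the contents of the gut lumen through taste-type receptors coupled to the cation channel Trpm5. They release interleukin 25, which acts on group 2 innate lymphoid cells, as well as leukotrienes, prostaglandins and acetylcholine. Their identity depends on the transcription factor Pou2f3.

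The tuft genes shared their low libraries and, but for Gfi1b, their highest library, and none of the members tested was called different between pMCAO and sham. The level of every member in libraries 58 to 61 was below or equal to its lowest level elsewhere, and a single sham library, replicate 6, held 1.88 to 3.78 times the median level of the other later libraries for the 8 members tested. Libraries are identified by the number in their titles: libraries 58 to 61 hold pMCAO replicate 1 and sham replicates 1 to 3, libraries 62 to 65 hold pMCAO replicates 2 and 3 and sham replicates 4 and 5, libraries 66 to 68 hold pMCAO replicates 4 and 5 and sham replicate 6, and library 72 is sham replicate 7. These runs of numbers are called library sets. No label gives a day or a batch, and the limits between the sets were drawn with earlier results of these data known.

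Total counts ranged from 7418730 to 31925579 per library. Libraries 58 to 61 held 7418730 to 15852161 counts, 13386 to 14712 detected genes and 34.8 to 54.5% mitochondrial ribosomal RNA, against 15343 to 15766 detected genes and 14.6 to 35.2% in the other 8. The part of depth and RNA composition in the results was not tested.

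All members are protein-coding genes of GRCm38 (GENCODE M21 annotation). The transcription factor genes are Pou2f3 (chr9:43123939-43210369, minus strand) and Gfi1b (chr2:28609450-28621982, minus strand). Trpm5 lies at chr7:143069153-143094642 on the minus strand, and Rgs13, whose product shortens G-protein signals, at chr1:144138654-144177372 on the minus strand. Dclk1, a microtubule-associated kinase, spans chr3:55242364-55539068 on the plus strand, Avil, which encodes the actin-binding protein advillin, chr10:127000709-127020994 on the plus strand, and Sh2d6, an SH2-domain adaptor gene, chr6:72513641-72521707 on the minus strand. The genes of secreted signals are Il25 (chr14:54932695-54935837, plus strand) and Alox5, the 5-lipoxygenase that begins leukotriene synthesis (chr6:116410077-116461178, minus strand). Counts were summed over exons, and exons of Dclk1, Trpm5 and Avil overlap exons of Gm21954 and Gm42609, of Tssc4 and of Tsfm on the opposite strand. Whether counting used strand is not given in the sources used here, so reads of these pairs cannot be told apart. Of these, Gm21954 was called higher in libraries 62 to 68 than in 58 to 61 (log2 difference 5.00, limma-voom adjusted p = 0.00596), at 0 CPM (counts scaled to a common library total) in libraries 58 to 61 and at 0.379 to 5.45 CPM in the others. Tsfm was also called higher (3.00, adjusted p = 0.0488), at 0 to 0.717 CPM and 0.568 to 4.24 CPM. Tssc4 ranged from 1.44 to 5.34 CPM in libraries 58 to 61 and from 2.46 to 11.4 CPM in the others, and did not pass the test (0.67, adjusted p = 0.358). Gm42609 was not analysed here.

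Since the members shared their low libraries and mostly their highest library, their promoters were read from RefSeq (GRCm38.p6, 250 bases before to 50 bases after the start), where 7 of the 9 genes had an entry, with 8 windows in all. The octamer ATGCAAAT or its reverse complement ATTTGCAT, the motif of the POU2F family, was in 0 of the 8 windows and in 1.74% of the 32851 windows of the table. Its first letters alone, ATGCAA or TTGCAT on either strand, a search added after the data had been seen, were in 1 of the 8 windows and in 10.7% of all windows. That window was the one of Avil (chr10:127000459-127000758, plus strand), with 2 matches. It is shown with both matches in capitals, next to the windows of the members with the highest levels per length, Sh2d6 (chr6:72519987-72520286, minus strand) and Rgs13 (chr1:144177323-144177622, minus strand), which held no match.
Avil: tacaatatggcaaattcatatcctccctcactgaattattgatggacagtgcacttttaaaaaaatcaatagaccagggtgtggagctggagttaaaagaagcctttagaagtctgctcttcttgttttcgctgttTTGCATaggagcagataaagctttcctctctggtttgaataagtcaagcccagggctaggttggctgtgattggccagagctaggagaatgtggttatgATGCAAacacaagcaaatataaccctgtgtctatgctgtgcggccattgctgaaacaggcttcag
Sh2d6: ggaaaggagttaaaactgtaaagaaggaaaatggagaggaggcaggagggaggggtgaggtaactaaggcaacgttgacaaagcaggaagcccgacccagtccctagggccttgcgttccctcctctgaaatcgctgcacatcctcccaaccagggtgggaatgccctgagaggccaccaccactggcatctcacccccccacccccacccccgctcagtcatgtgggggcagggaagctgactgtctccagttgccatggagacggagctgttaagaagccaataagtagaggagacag
Rgs13: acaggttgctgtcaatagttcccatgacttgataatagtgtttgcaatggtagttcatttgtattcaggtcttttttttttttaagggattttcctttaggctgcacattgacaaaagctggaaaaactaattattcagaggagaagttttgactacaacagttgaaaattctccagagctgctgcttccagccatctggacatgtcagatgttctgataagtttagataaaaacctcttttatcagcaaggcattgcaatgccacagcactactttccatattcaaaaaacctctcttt
A match here is a description of letters, and no match says only that these letters are not in the window.

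Levels are given as CPM scaled with TMM factors, which correct for libraries dominated by a few genes. In the 8 libraries outside 58 to 61, the median level per kilobase of exon placed Sh2d6 first at 69.9 CPM per kb, followed by Rgs13 at 20.03, Trpm5 at 11.9, Avil at 10.4 and Dclk1 at 7.12 CPM per kb. Alox5 (4.01 CPM per kb), Pou2f3 (3.59), Gfi1b (1.80) and Il25 (0.312) lay below. Exon lengths run over all isoforms, 15296 bases for Dclk1, which lowers its value per kb. The ranges of Trpm5 (6.66 to 29.8 CPM per kb) and Avil (7.18 to 28.5) overlapped almost wholly, as did those of Alox5 (1.37 to 9.85) and Pou2f3 (1.88 to 11.9), so neither pair can be ranked, whereas the range of Sh2d6 (40.9 to 167 CPM per kb) lay above that of every member except Rgs13 (12.3 to 75.3).

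Among the regulators, Pou2f3 measured 0.769 CPM in the pMCAO library and 0, 0.206 and 2.40 CPM in the sham libraries of set 58 to 61. It reached 8.71 and 13.4 CPM with pMCAO against 11.1 and 11.1 CPM with sham in set 62 to 65, 11.7 and 5.80 CPM with pMCAO against 36.7 CPM in sham replicate 6, and 9.74 CPM in sham replicate 7. The group values overlapped, with sham replicate 6 far above both groups. The repressor gene Gfi1b had 2 counts in all of libraries 58 to 61. Elsewhere it measured 3.88, 1.57, 3.52 and 3.07 CPM in the pMCAO libraries and 0.739, 0.870, 5.78 and 6.03 CPM in the sham libraries, so that sham held both the lowest and the highest values.

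The taste channel gene Trpm5 was still counted in libraries 58 to 61, at 18.3 CPM with pMCAO and 25.8, 3.08 and 19.9 CPM with sham. Its pMCAO values elsewhere were 77.3, 74.9, 101 and 66.5 CPM, and its sham values were 42.6, 51.6, 191 and 81.8 CPM. Rgs13 was at 2.57 CPM with pMCAO and 0.558, 0.616 and 0.240 CPM with sham in libraries 58 to 61. It stood at 34.8 and 29.8 CPM (pMCAO) against 26.7 and 33.0 CPM (sham) in set 62 to 65, at 34.0 and 20.3 CPM against 125 CPM in set 66 to 68, and at 33.4 CPM in sham replicate 7. All later sham values of Rgs13 other than that of sham replicate 6 lay within the pMCAO range.

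Of the structural and adaptor genes, Dclk1, the most used tuft marker, was at 2.05 CPM with pMCAO and at 5.58, 4.73 and 11.7 CPM with sham in libraries 58 to 61. It was at 127 and 111 CPM (pMCAO) against 69.8 and 92.0 CPM (sham) in set 62 to 65, and at 158 and 107 CPM against 370.2 CPM in set 66 to 68, with 91.5 CPM in sham replicate 7. Sh2d6 went from 3.25 CPM (pMCAO) and 2.15, 1.64 and 13.4 CPM (sham) in libraries 58 to 61 to 118, 131, 118 and 150.5 CPM (pMCAO) and 69.1, 76.3, 282 and 88.7 CPM (sham) in the others. In set 62 to 65 both pMCAO libraries of Dclk1 and Sh2d6 stood above both sham libraries, and in set 66 to 68 both stood below the only sham library. Avil was at 8.81 CPM (pMCAO) and 5.18, 8.01 and 8.86 CPM (sham) in the first set, and at 34.8, 35.9, 53.1 and 38.1 CPM (pMCAO) and 24.4, 28.1, 96.9 and 34.6 CPM (sham) in the others, in the same order within sets.

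Of the signal genes, Alox5 had 1 count in the pMCAO library and 1, 0 and 2 counts in the sham libraries of set 58 to 61, and 17.6, 12.7, 16.98 and 16.4 CPM (pMCAO) and 11.6, 5.63, 40.4 and 16.5 CPM (sham) in the others. Il25 was near the limit of detection everywhere: 0 counts in each of libraries 58 to 61, 6, 24, 1 and 6 counts in the later pMCAO libraries, and 4, 0, 26 and 6 counts in the later sham libraries. It was removed by the filter on low counts and so was not tested in the filtered fit across genes. An exact two-sided permutation test over the 792 possible assignments of the group labels gave a mean difference of -0.028 CPM (pMCAO minus sham, 0.200 ± 0.215 against 0.228 ± 0.293 CPM, SD, n = 5 and 7), with p = 0.861. That test had no term for the library set, and the smallest p it allows is 0.00126.

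**Figure D1:**
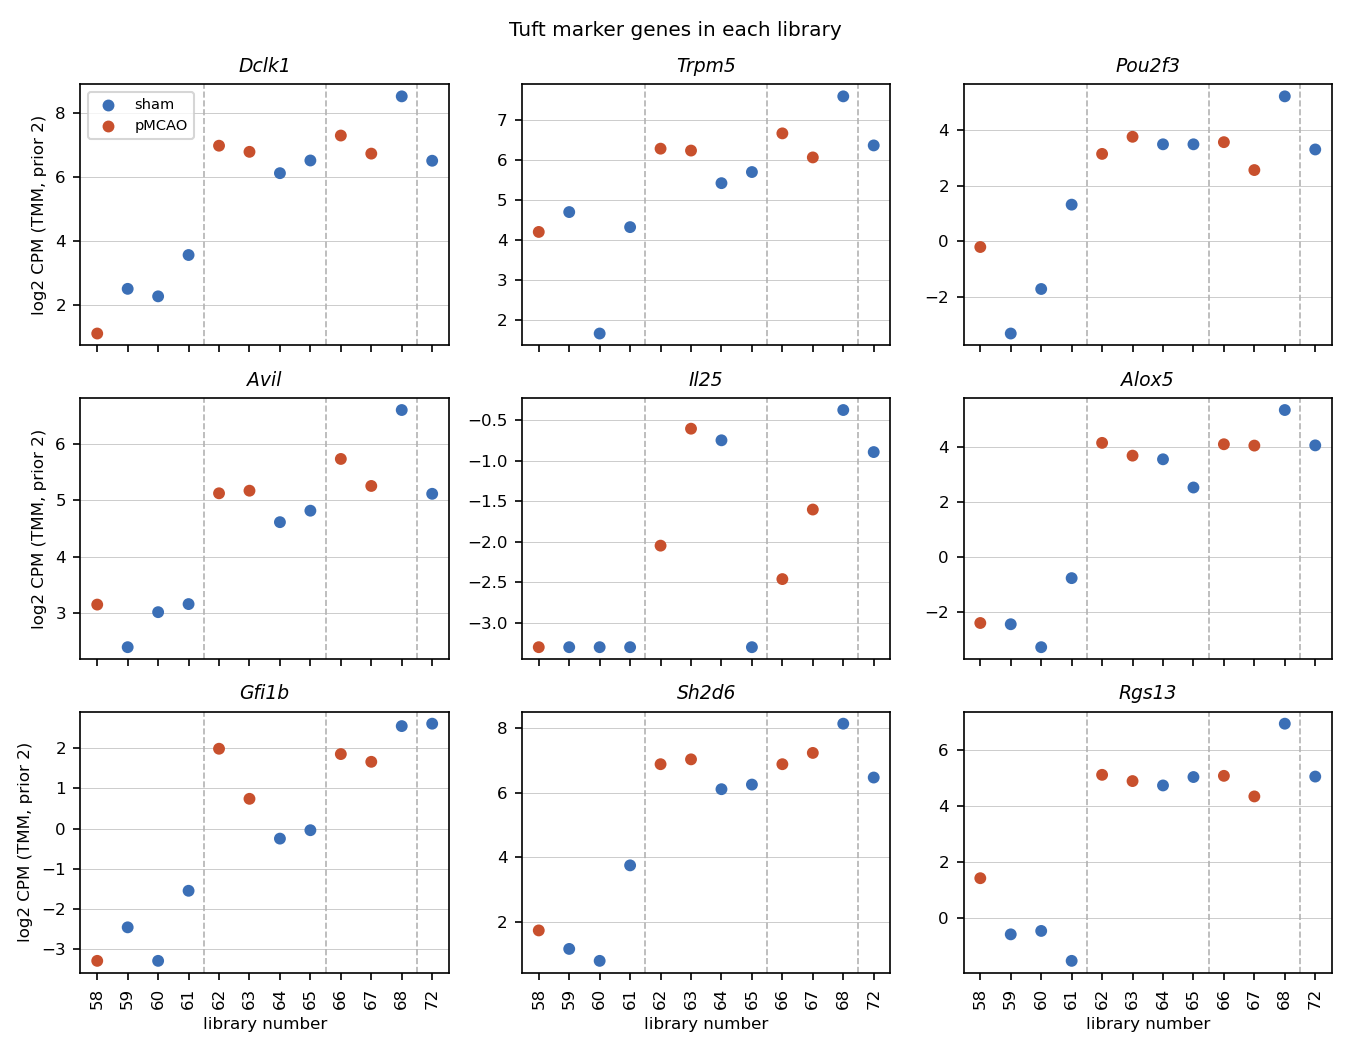
Level of each tuft marker gene as log2 CPM (TMM-scaled, prior count 2) on the y axis of its own scale, against library number on the x axis; each point is 1 library, blue for sham and orange for pMCAO, and dashed lines part the library sets. Libraries 58 to 61 lie lowest in every panel (for Il25, tied with library 65 at 0 counts), and library 68, sham replicate 6, is the highest in all but Gfi1b.

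The comparison of pMCAO with sham asks whether stroke changed the epithelial transcriptome, here its tuft cell part. In bulk RNA, fewer tuft cells and less tuft RNA per cell cannot be told apart. A gene was called when its limma-voom p, adjusted over all 14462 genes tested (Benjamini-Hochberg), was at most 0.05 and its absolute log2 difference at least 1, with the library set as a covariate. Of the 8 members that passed the filter, 0 were called, against 47 of all genes tested (0.325%), and 2 had an unadjusted p under 0.05, against 12.7% of all genes. The edgeR quasi-likelihood test and DESeq2 also called 0 members, against 0.145% and 0.671% of all genes, with 0 members at an unadjusted p under 0.05 in each, against 9.16% and 11.3%. The 8 log2 differences were all below 0, as were 48.7% of all genes, with a median of -0.27 against 0.013 over all genes. Pou2f3 had the lowest, -1.10 ± 0.43 (SE, adjusted p = 0.293), followed by Rgs13 at -0.98 ± 0.37 (adjusted p = 0.272). The other differences were -0.41 ± 0.31 for Dclk1, -0.28 ± 0.26 for Avil, -0.26 ± 0.37 for Alox5, -0.16 ± 0.51 for Gfi1b, -0.15 ± 0.33 for Trpm5 and -0.04 ± 0.28 for Sh2d6, all on the log2 scale.

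The sign of these differences turned for every member when sham replicate 6 was left out, and for some when another library was. Without sham replicate 6, the same fit put all 8 members above 0, from 0.05 for Pou2f3 and 0.17 for Rgs13 to 1.00 for Alox5 and 1.07 for Gfi1b, with 0 called (0.0285% of all genes were). The share of all genes above 0 in that fit was not computed. That fit has no sham library in set 66 to 68, so pMCAO replicates 4 and 5 add nothing to its group difference. Of the 8, 2 had an unadjusted p under 0.05 there, Sh2d6 (0.72, adjusted p = 0.298) and Alox5 (adjusted p = 0.364), against 11% of all genes. Without pMCAO replicate 5, Trpm5 (0.094), Gfi1b (0.17) and Sh2d6 (0.039) lay above 0, and without pMCAO replicate 4 Sh2d6 did (0.12). Leaving the library set out of the fit also turned all 8 above 0, from 0.24 for Rgs13 to 0.75 for Sh2d6, with standard errors of 0.60 to 1.41 and adjusted p of 0.879 to 0.964, where 44.8% of all genes lay below 0 and 0% were called. In none of these fits did a member pass the adjusted threshold.

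**Figure D2:**
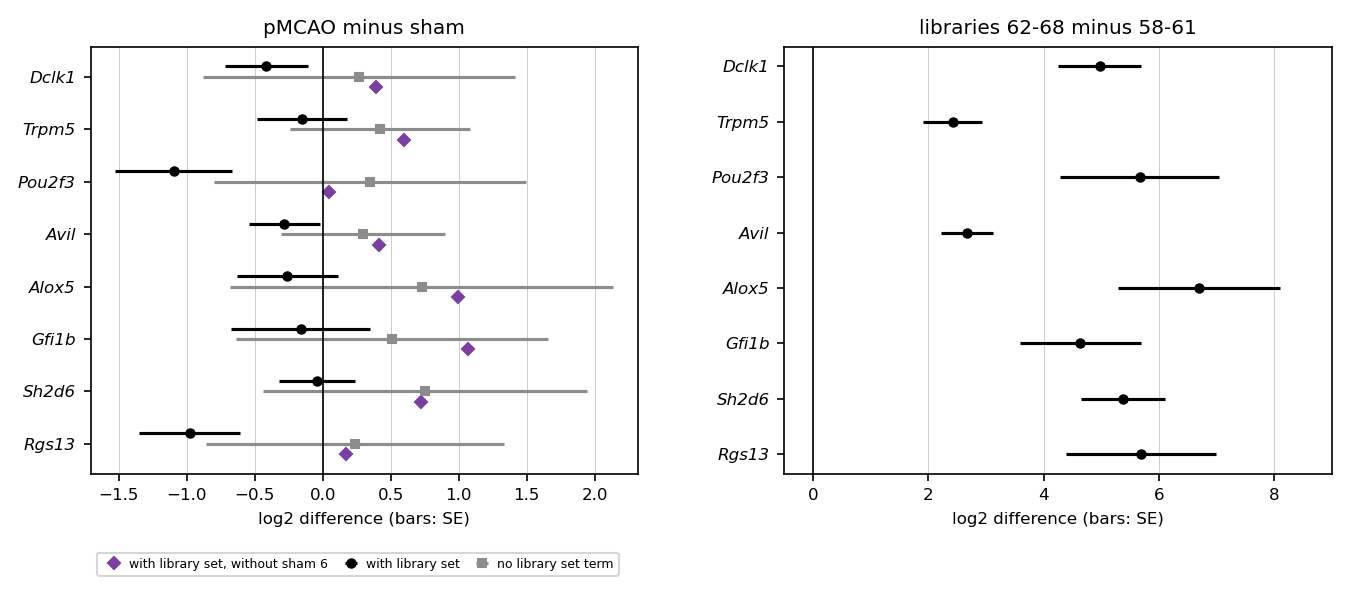
Left, log2 difference of pMCAO minus sham for the 8 members tested, with the library set in the fit (black circles), without it (grey squares) and with it but without sham replicate 6 (purple diamonds, drawn without error); right, log2 difference of libraries 62 to 68 minus libraries 58 to 61. Bars are standard errors of the limma-voom fit; the group differences change sign between fits, whereas all 8 library set differences lie above 2.

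Within the sets, the members gave opposite orders. In set 62 to 65, both pMCAO libraries stood above both sham libraries for 6 of the 8 tested members (19.4% of all genes tested), with log2 differences of 0.57 for Dclk1, 0.70 for Trpm5, 0.43 for Avil, 0.88 for Alox5, 1.51 for Gfi1b and 0.78 for Sh2d6, and with overlap for Pou2f3 (-0.04) and Rgs13 (0.12). In set 66 to 68, both pMCAO libraries stood below the sham library for 8 of 8 (36.1% of all genes), with log2 differences from -0.80 for Gfi1b to -2.14 for Pou2f3 and -2.24 for Rgs13. The same 6 members showed both orders, as did 6.22% of all genes. Mitochondrial ribosomal RNA also differed within these sets. In set 62 to 65 it made 14.6 and 17.2% of counts with pMCAO, and 35.2 and 26.6% with sham. In set 66 to 68 it made 29.7 and 26.1% with pMCAO, and 14.7% in sham replicate 6. In both sets the group with the smaller share had the higher total counts. The part of these differences in the orders was not tested. In set 58 to 61, where counts were low, the differences ran from -1.67 for Dclk1 to 2.29 for Rgs13. Among the 7 later libraries without sham replicate 6, the pMCAO values lay above the sham values with no overlap for 3 of the 8 tested members, Dclk1, Avil and Sh2d6 (3.9% of all genes), an order looked at after the value of sham replicate 6 was known.

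Whether the group difference differed between sets was tested with an interaction (limma-voom F test over the 3 sets). Rgs13 was the only member called (adjusted p = 0.0214), where 22 of all genes tested were (0.152%). Dclk1 followed at an adjusted p of 0.0626 and Sh2d6 at 0.110, and the other 5 members lay between 0.205 and 0.527. The edgeR test called 0 genes, with 1039 at an unadjusted p under 0.05 and an adjusted p of 0.076 for Rgs13. The call on Rgs13 was also lost without sham replicate 1 (adjusted p = 0.0546), sham replicate 2 (0.0585), sham replicate 5 (0.0838), pMCAO replicate 4 (0.0683) or pMCAO replicate 5 (0.231), and without sham replicate 6 or pMCAO replicate 1 the test could not be fitted over the 3 sets.

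**Figure D3:**
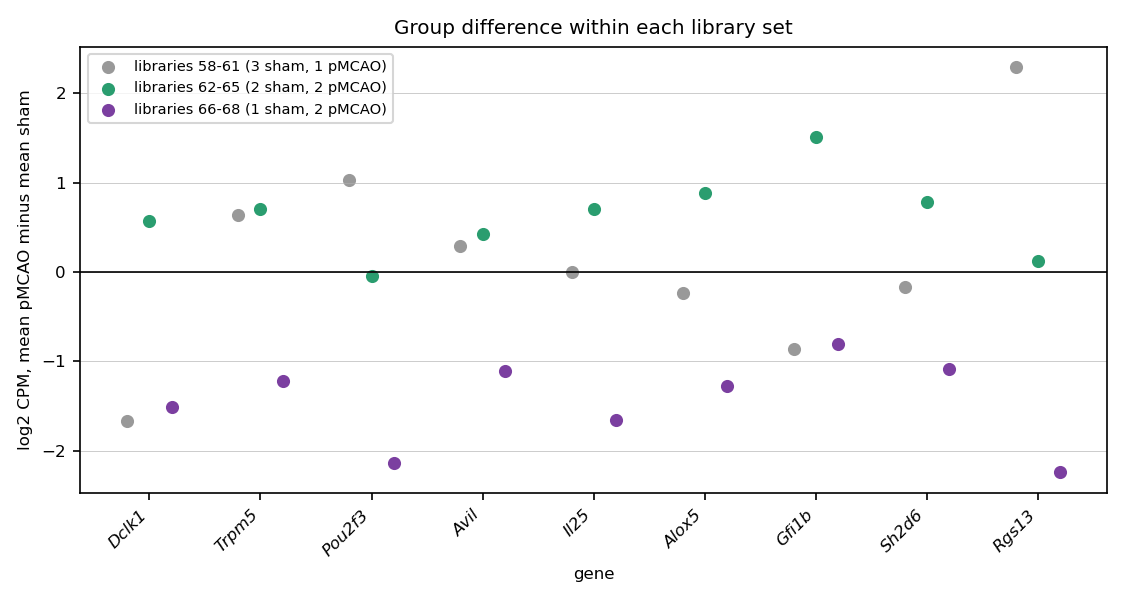
Mean log2 CPM of the pMCAO libraries minus that of the sham libraries (y axis) for each tuft marker gene (x axis) within library set 58 to 61 (grey), 62 to 65 (green) and 66 to 68 (purple); each point rests on 3 or 4 libraries. All 9 purple points lie below 0, and 8 of the 9 green points lie above it, the exception being Pou2f3 at -0.04.

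Sham replicate 6 was the highest of the 12 libraries for 7 of the 8 tested members (7.74% of all genes tested), and for Il25. The exception was Gfi1b, at 5.78 CPM there and 6.03 CPM in sham replicate 7. Relative to the median of the other 7 libraries outside set 58 to 61, its level was 1.88 times for Gfi1b and up to 3.78 times for Rgs13, with Dclk1 at 3.47 times. Summed over the 9 members it held 1148 CPM, against 256.5 to 496 CPM in those 7 libraries and 18.3 to 57.2 CPM in libraries 58 to 61. The make-up of the sum was similar, set against ranges over the 8 libraries that include sham replicate 6 itself. Dclk1 gave 32.3% of it in sham replicate 6, the highest share of the 8 libraries, where the lowest was 25.2%. Sh2d6 gave 24.5% (23.8 to 36.9% over the 8) and Trpm5 16.6% (16.3 to 22.6%). Across these 8 libraries the members' log2 CPM correlated with a median Pearson r of 0.716 over 36 pairs, and of 0.336 without sham replicate 6. Without Il25, which has few counts, the medians over 28 pairs were 0.793 and 0.544. The single pairs ran from 0.2 to 0.976, and without sham replicate 6 from -0.421 to 0.914. Without that library, r of Pou2f3 ran from -0.421 with Sh2d6 to 0.645 with Rgs13, with -0.017 for Dclk1. Both values of a pair come from the same library and share its depth.

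Between library sets the tuft genes differed far more than between groups. All 8 members tested were called higher in libraries 62 to 68 than in 58 to 61, a contrast in which 12% of all genes tested were called, 9% higher and 2.97% lower. The median of the 8 log2 differences was 5.17, against 0.148 over all genes. Alox5 differed by 6.69 ± 1.40 (SE, adjusted p = 0.00426), Rgs13 by 5.69 ± 1.30 (0.00696), Pou2f3 by 5.66 ± 1.38 (0.00997), Sh2d6 by 5.38 ± 0.73 (0.000329) and Dclk1 by 4.97 ± 0.72 (0.000511). The smallest differences were those of Gfi1b at 4.63 ± 1.05 (adjusted p = 0.00667), Avil at 2.67 ± 0.45 (0.00129) and Trpm5 at 2.42 ± 0.51 (0.0045). Every library of 58 to 61 lay below every other library for 8 of 8 members (9.5% of all genes). The filter asks for a minimum level in 5 libraries, the size of the smaller group, and set 58 to 61 holds 4. No member could therefore pass it without the later libraries. Alox5 and Gfi1b had at most 2 and 1 counts in any library of 58 to 61. Pou2f3 (9 counts with pMCAO and 0, 1 and 10 with sham) and Rgs13 (30, and 7, 3 and 1) were also low there. The limits between the sets were drawn with earlier results known. These calls and their adjusted p-values are therefore a description and no independent test. Since these sets hold both groups, the contrast is between libraries and not between treatments, and what set libraries 58 to 61 apart was not tested.

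For members near 0, the fitted difference depends on the prior count. Gfi1b had 2 counts in libraries 58 to 61 and 688 in the other 8, a ratio of scaled levels of 56.4 with a 95% counting interval of 15.6 to 467. Alox5 had 4 counts against 3940, a ratio of 162 (63.01 to 593). Il25 had 0 against 73, at least 3.99-fold higher when 3 counts over the 4 libraries are taken as the floor. With no filter on low counts, limma-voom gave Il25 a log2 difference of 1.99 ± 1.22 (adjusted p = 0.284), which did not pass the test. These intervals cover counting error only. The call on Gfi1b was lost without pMCAO replicate 1 (adjusted p = 0.0764) and that on Pou2f3 without sham replicate 1 (adjusted p = 0.0591), though their differences stayed at 4.17 and 4.22. In the sham libraries alone the same contrast called 8 members, against 8.71% of all genes tested. Il25, which passed the filter of that fit, made by library set, was not called (log2 difference 1.79 ± 1.30). Sham replicate 6 alone stands for set 66 to 68 there, so that fit is no independent test.

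Of 44 further tuft genes listed by role, 41 were in the table and tested. In the group comparison 0 of the 41 were called (limma-voom, 0.325% of all genes tested). Of the 41, 7 had an unadjusted p under 0.05 (12.7% of all genes), and 38 lay below 0 (48.7%), with a median of -0.54 (0.013 over all genes). The edgeR test and DESeq2 also called 0, with 3 and 4 at an unadjusted p under 0.05, against 9.16% and 11.3% of all genes. Without sham replicate 6, 8 of the 41 lay below 0, and 0 were called (0.0285% of all genes). The share of all genes below 0 in that fit was not computed, and pMCAO replicates 4 and 5 add nothing to its group difference. The succinate receptor gene Sucnr1 had the smallest p, at a log2 difference of -1.69 ± 0.49 (adjusted p = 0.154), and the taste G-protein gene Gnat3 followed in its list at -1.43 ± 0.77. Hpgds, a prostaglandin D synthase gene, was at -1.16 ± 0.44, Alox5ap, the partner of 5-lipoxygenase, at -0.86 ± 0.36, the kinase gene Bmx at -0.93 ± 0.31, Vav1 at -0.60 ± 0.30, Smpx at -1.57 ± 0.55, Sh2d7 at -0.80 ± 0.38, Spib at -0.70 ± 0.29, Sox4 at 0.72 ± 0.44, the interleukin 25 receptor gene Il17rb at -0.63 ± 0.37 and Il4ra at 0.13 ± 0.19, with 0 called. Both pMCAO libraries stood above both sham libraries in set 62 to 65 for 21 of the 41 (19.4% of all genes tested). Both stood below the sham library in set 66 to 68 for 38 (36.1% of all genes), and 36 were highest in sham replicate 6 (7.74%).

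Between library sets, 34 of the 41 were called higher in libraries 62 to 68 and 0 lower, against 9% and 2.97% of all genes tested. The median log2 difference was 4.52, against 0.148 over all genes. The limits given for the members, from the filter and the choice of sets, hold here as well. The number called was 22 without pMCAO replicate 1, 21 without sham replicate 1 and 31 without sham replicate 6, with 0 lower each time. By role, these were 3 of 6 chemosensory genes (among them Plcb2, the phospholipase of taste signalling, 4.70 ± 1.10, and Sucnr1, 5.74 ± 1.39), 4 of 4 transcription factor genes (Spib 3.93 ± 0.74, Hmx2 3.70 ± 0.97) and 5 of 6 genes of eicosanoid and acetylcholine synthesis (Chat, choline acetyltransferase, 6.06 ± 1.21, and Pla2g4a 5.25 ± 1.12). Of the cytokine receptor genes, Il17rb was called (4.72 ± 1.09), whereas Il4ra, which other epithelial cells also express, was at -0.40 ± 0.21. The immune-type signalling genes were called in 12 of 13 cases (among them Fyb, 4.22 ± 0.66), and the remaining markers in 9 of 9 (Cd24a 4.52 ± 0.46, Lrmp 4.92 ± 0.78). Several of these genes, Fyb, Vav1 and Alox5ap among them, are also expressed by leukocytes.

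Markers of other cell types were read beside the tuft genes as summed CPM per list. No CD45 gate was stated, and the lymphocyte list (11 of 11 genes present) held 168 CPM in sham replicate 6, within the 117 to 669 CPM of the other 7 later libraries, with Cd3e at 2.26 CPM there and 2.72 to 36.0 CPM in those 7. Ptprc made 109 CPM of that sum, against 26.1 to 121 CPM in those 7. Cd3e, Cd3g, Itgae, Cd7, Gzma and Gzmb were each lower in sham replicate 6 than in any of those 7. The other genes of the list lay within their range. The myeloid list (5 of 5 genes) held 9.53 CPM in sham replicate 6 against 6.91 to 39.5 CPM. Of the mast cell and basophil list, 3 of 8 genes were analysed here, and their sum was highest in sham replicate 6, at 25.95 CPM against 5.05 to 19.6 CPM, of which Kit made 24.1 CPM, while Mcpt1 was at 0.848 CPM and Mcpt2 at 1.03 CPM. Among epithelial types, sham replicate 6 lay within the range of the other 7 for the enteroendocrine (2843 CPM, against 1645 to 3434), goblet (18430 CPM, 15940 to 39610), Paneth (34.6 CPM, 11.5 to 57.99) and enterocyte lists (18480 CPM, 12330 to 20980). It lay below it for the summed stem and proliferating list, at 35.8 CPM against 48.2 to 179 CPM. Olfm4, Smoc2, Mki67 and Top2a of that list were each lower in sham replicate 6 than in any of the other 7. The stem cell gene Lgr5 went the other way, at 8.478 CPM there against 0.5222 to 4.089 CPM. Of the Paneth list, Ang4 was highest in sham replicate 6, at 14.52 CPM against 0 to 10.97 CPM. The other Paneth genes lay within their range. The tuft sums lay above the range in each of the 7 tuft lists.

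Other lists also differed between library sets. In libraries 58 to 61 the enteroendocrine list held 199 to 399 CPM and the goblet list 3188 to 5738 CPM, and 7 of 7 and 6 of 6 of their genes were called higher in libraries 62 to 68, with median log2 differences of 3.23 and 2.19. The enterocyte list held 15580 to 37920 CPM, with 1 of 8 genes called higher and 0 lower and a median of -0.32. Of its genes, Epcam (-0.996, adjusted p = 0.00108), Apoa1 (-0.97, 0.00569), Alpi (-0.97, 0.0093) and Vil1 (-0.54, 0.00876) were lower in libraries 62 to 68 at an adjusted p under the threshold but short of the log2 limit of 1. Of the stem and proliferating list, 2 of 5 genes were called higher and 5 had an unadjusted p under 0.05. For the Paneth list, 0 of 4 genes were called by limma-voom, with 0 at an unadjusted p under 0.05, and 1 by edgeR and by DESeq2. For lymphocytes 4 of 11 were called higher, and 1 without sham replicate 6. Between pMCAO and sham, limma-voom called 0 genes of any of these lists. Sis, of the enterocyte list, was higher with pMCAO at an adjusted p under the threshold (0.74, adjusted p = 0.0337) but short of the log2 limit of 1. With no library set term its limma-voom difference was 1.14 (adjusted p = 0.322). At an unadjusted p under 0.05 stood 5 lymphocyte, 4 goblet and 3 enterocyte genes, and 0 enteroendocrine genes, against 12.7% of all genes tested. The edgeR test and DESeq2 likewise called 0 genes of the lymphocyte, goblet, enterocyte, Paneth and enteroendocrine lists, and had 1 lymphocyte and 3 goblet genes each at an unadjusted p under 0.05.

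**Figure D4:**
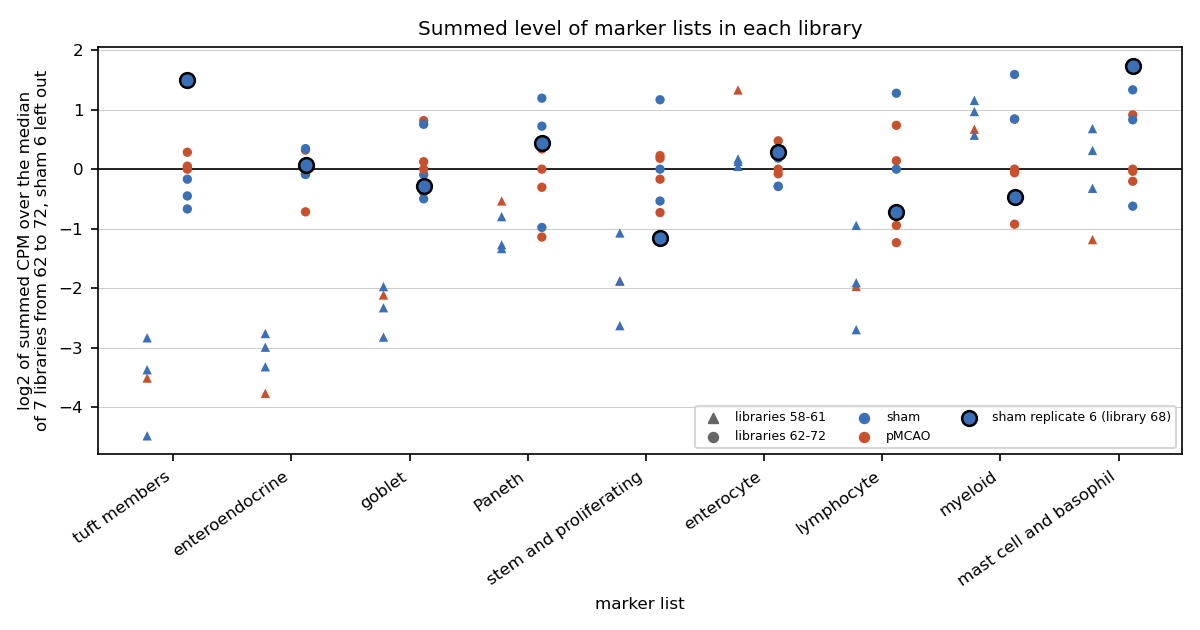
Summed CPM of the tuft marker genes and of 8 other marker lists in each library (y axis, log2 relative to the median of the 7 libraries outside 58 to 61 other than sham replicate 6); triangles are libraries 58 to 61, circles the other libraries, blue sham and orange pMCAO, and the ringed point is sham replicate 6. The ringed point lies above all circles for the tuft and the mast cell lists, and the triangles lie below all circles for the tuft, enteroendocrine and goblet lists.

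Outside the lists, the genes whose log2 CPM followed the members' mean most closely over the 8 later libraries were Dmxl2 (Pearson r = 0.976), Nav2 (0.952), Fam49a (0.951), Stra6l (0.949), Strip2 (0.949), Cpne3 (0.948), Cited2 (0.941), Sort1 (0.941), Ptpn18 (0.939) and RP23-387F14.2 (0.939). Without sham replicate 6, r over the remaining 7 libraries stayed above 0.97 for Nav2 (0.983) and Ptpn18 (0.976), and was lowest for Strip2 (0.768) and Stra6l (0.775). Strip2 was at 195 CPM in sham replicate 6, against 35.5 to 64.9 CPM in the other 7 and at most 7.57 CPM in libraries 58 to 61. Cited2 ranged only from 26.5 to 38.3 CPM over the 8 libraries and was at up to 41.5 CPM in libraries 58 to 61. All of these genes were picked for this likeness, so their r is a description.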

How the data were processed

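The authors removed ribosomal RNA by cleavage, mapped paired-end reads to GRCm38 with STAR, used featureCounts for the gene counts, and compared the groups by limma-voom with a correction for collection day. The deposited counts are whole reads per gene, not normalised, and were used for every test. The deposited CPM columns are those counts as CPM, and the deposited log2 columns and p-value columns hold the authors' own comparison and were not used. The members and lists were chosen with earlier results of these data known. All 9 members, the 2 genes with the smallest p of each tuft list and the 10 genes most alike are named, except 1 listed gene that is not reported here.

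Genes were kept with filterByExpr (minimum count 10), which left 14462 genes and took out 1393. The fit was made on TMM-scaled counts with limma-voom over 12 samples with group and library set (limma 3.58.1, edgeR 4.0.16, DESeq2 1.42.0, R 4.3.3), after tests on simulated data. The 4 library sets follow the library numbers, since the labels give no day. Total counts ranged from 7418730 to 31925579, and 3 counts corresponded to 0.094 to 0.404 CPM before TMM scaling. On the TMM-scaled CPM used for the levels, 3 counts were 0.616 CPM in sham replicate 2 and 0.719 CPM in sham replicate 3. A further pMCAO sample counted by the study was not analysed here. Alternatives were edgeR, DESeq2, RLE factors, quality weights, no filter, no library set, no mitochondrial genes, a replicate block, fits without set 58 to 61 and fits without each library.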

Additional observations from a re-analysis of the deposited data

Results flagged for a closer look

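Single libraries stood far from the rest of their group by Dixon's test in 16 of the 36 checks made, 18 on the CPM scale and 18 on the log2 scale. For independent checks of uniform groups, chance would give about 1 in 20, or 1.8 of 36. Every flag fell on sham replicate 6 or pMCAO replicate 1. The same genes were checked on both scales and come from the same libraries, so that these checks are not independent. Each group also mixes library sets that differ, so 1.8 is not the number to expect here. On the CPM scale sham replicate 6 stood above the other 6 sham libraries for Dclk1 (370.2 CPM, others at most 92.0), Trpm5 (190.9 CPM, at most 81.8), Pou2f3 (36.7 CPM, at most 11.1), Avil (96.9 CPM, at most 34.6), Alox5 (40.4 CPM, at most 16.5), Sh2d6 (281.6 CPM, at most 88.7) and Rgs13 (124.6 CPM, at most 33.4).

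On the same scale pMCAO replicate 1, the only pMCAO library of set 58 to 61, stood below the other 4 for Alox5 (0.085 CPM, others at least 12.7) and Sh2d6 (3.25 CPM, at least 118). On the log2 CPM scale it stood below them for Dclk1 (1.11, others at least 6.74), Trpm5 (4.201, at least 6.06), Avil (3.16, at least 5.13), Alox5 (-2.42, at least 3.68), Gfi1b (-3.30, at least 0.74), Sh2d6 (1.74, at least 6.89) and Rgs13 (1.42, at least 4.35). The sham group holds 3 libraries of that set, so no single one of them could stand apart in the same way.

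The difference between pMCAO and sham of Rgs13 differed between the library sets, by the interaction test of limma-voom (adjusted p = 0.0214), with log2 differences of 2.29, 0.12 and -2.24 in sets 58 to 61, 62 to 65 and 66 to 68. The first rests on 30 counts in 1 pMCAO library against 7, 3 and 1 counts with sham, and the last on sham replicate 6 as the only sham library. The call was lost with edgeR (adjusted p = 0.076). It was also lost without sham replicate 1, 2 or 5, or pMCAO replicate 4 or 5.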

How the results depend on the processing

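No member was called between pMCAO and sham under any alternative run. The direction was less stable, and changed in 41 of the 184 alternative values of the members. It turned above 0 with no library set term (Dclk1 0.27, Trpm5 0.42, Pou2f3 0.35, Avil 0.30, Alox5 0.73, Gfi1b 0.51, Sh2d6 0.75 and Rgs13 0.24), and without both sham replicate 6 and set 58 to 61, an alternative chosen after seeing the data (Dclk1 0.55, Trpm5 0.68, Avil 0.41, Alox5 1.04, Gfi1b 1.52, Sh2d6 0.77 and Rgs13 0.087). It also turned for Gfi1b under edgeR (0.32) and DESeq2 (0.32), for Rgs13 under DESeq2 (0.13), for Sh2d6 without set 58 to 61 (0.0072), and for Dclk1 (0.0024) and Sh2d6 (0.24) with neither that set nor a library set term, also chosen after seeing the data. Leaving out each library in turn gave Dclk1 -0.70 to 0.39, Trpm5 -0.40 to 0.60, Pou2f3 -1.51 to 0.048, Avil -0.50 to 0.42, Alox5 -0.78 to 1.00, Gfi1b -0.56 to 1.07, Sh2d6 -0.30 to 0.72, Rgs13 -1.38 to 0.17; the highest value of each came without sham replicate 6.

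The count of genes called between pMCAO and sham, 47, became 97 with DESeq2, 21 with edgeR, 29 with sample quality weights and 0 with no library set term, without set 58 to 61, or in either alternative chosen after seeing the data. The limma-voom fits with 0 calls had 995 to 1421 genes at an unadjusted p under 0.05. Leaving out each library gave 4 (without sham replicate 6) to 86 (without pMCAO replicate 3), with 0 members called each time. The genes called between library sets ranged from 730 (without pMCAO replicate 1) to 2201 (without sham replicate 5), and the members called from 7 to 8. Of 152 alternative values of the members in that contrast, 150 kept their call and 2 lost it. The genes called for the interaction ranged from 0 to 152 over 10 fits without 1 library, and edgeR called 0.

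The labels state no pairing for the replicate numbers and give no day. Same-numbered sham and pMCAO libraries, as deviations from their group means, had correlations of 0.398, -0.239, -0.162, 0.163 and 0.0821 for replicates 1 to 5. The highest correlation of each of these sham libraries with a pMCAO library of another number was -0.0979, 0.391, 0.357, 0.24 and 0.133. Only for replicate 1 was the same number the highest. With no pairing stated, the numbers were not treated as pairs. With the replicate block in place of the library set, 243 genes and 0 members were called, 2468 genes and 6 of the 8 members had an unadjusted p under 0.05 (lowest adjusted p 0.0796 for Sh2d6), and the members stood at Dclk1 1.43, Trpm5 1.01, Pou2f3 0.49, Avil 1.04, Alox5 1.81, Gfi1b 2.17, Sh2d6 1.61 and Rgs13 0.61. Sham replicates 6 and 7 have no pMCAO partner and carry no group difference in that fit. The replicate block together with the library set could not be fitted.

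A set with 1 sham or 1 pMCAO library gives no spread of its own, and the library without a partner is assumed to vary like the others. Libraries 58 to 61 held too few tuft counts for a group difference there to be detectable for Alox5, Gfi1b or Il25. Sham replicate 7, alone in its set, adds nothing to the group difference.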
